A study of Homo sapiens with 6 samples.

Results

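Transcript levels of 57 DNA damage repair genes were measured by RNA-seq of polyadenylated RNA in J82 cells, which are a long-established line from a human bladder cancer. The genes were listed by name for their roles in nucleotide excision repair, interstrand crosslink repair, homologous recombination, break sensing, mismatch repair, translesion synthesis, end joining and single-strand break repair, and the rule uses no measured value, although the list was drawn up with earlier results of these data known. All 57 were found among the 57820 genes of the count table, and all 57 were among the 15647 genes with enough counts to be tested. There were 3 control libraries (genotype control) and 3 libraries labelled KO (FOXC1 knockout), all of J82 cells grown in DMEM with 10% serum. The study's methods describe the controls as vector control cells. The labels give no cisplatin treatment for any library. FOXC1, a forkhead transcription factor, had been targeted with a single guide RNA delivered by the lentiviral vector lentiCRISPR v2, followed by puromycin selection, and its loss was checked by the authors at the protein level. The sources speak of knockout clones but do not say whether the 3 libraries came from 1 clone or from separate cultures, so the p-values measure only the spread between these libraries.

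DNA lesions are handled by several pathways that share parts. Nucleotide excision repair cuts out bulky adducts such as those formed by platinum drugs, whereas crosslinks that tie both strands together are unhooked by the Fanconi anaemia proteins and finished by homologous recombination. Translesion polymerases copy past lesions that have not been removed, mismatch repair corrects replication errors, and breaks are joined either from a homologous template or directly at their ends. Bladder cancers are commonly treated with cisplatin, and the repair of its adducts has long been studied in this tissue.

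Library totals ranged from 22900531 to 25013311 counts in the control libraries and from 18408134 to 25350908 counts in the libraries labelled KO. Levels are given as CPM, the counts of a gene relative to the library total, scaled by the trimmed mean of M values, and log2 fold changes are the libraries labelled KO over control, with standard errors from edgeR's quasi-likelihood fit across all tested genes. A gene was called changed at a Benjamini-Hochberg adjusted p under 0.05 together with a fold change over 1.3, which is 0.38 on the log2 scale. The FOXC1 transcript itself does not check the labels. It was 18.4, 16.9 and 19.3 CPM in the control libraries and 24.1, 22.2 and 21.1 CPM in the libraries labelled KO, a log2 fold change of 0.30 ± 0.091 (SE, edgeR adjusted p = 0.0127), and a small edit in the coding sequence need not lower the transcript.

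The repair genes differed little between the groups. Of the 57 genes, 1 fell, the translesion scaffold REV1, and 1 rose, the Fanconi core subunit FANCE, which is 3.51% of the genes. Over all 15647 tested genes 8.39% were lower, 7.57% were higher and 16.0% were called in either direction by the same rule. Among the 9850 tested genes whose mean CPM lay within the range of the repair genes, from 8.70 to 639.5 CPM, 5.62% were lower, 6.53% higher and 12.2% called in either direction. Without the fold threshold, 14 repair genes had an edgeR adjusted p under 0.05, 7 lower and 7 higher, which is 24.6% of them beside 29.4% of all tested genes (14.3% lower, 15.2% higher) and 32.4% of those in the same range of CPM. The groups did not overlap for 24 repair genes (42.1%), 11 with the libraries labelled KO below and 13 with them above, beside 41.3% of all tested genes (20.8% below, 20.5% above). These shares lay below or near those of all tested genes.

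The differences ran from -0.41 for REV1 to 0.48 for FANCE on the log2 scale. The median log2 fold change was 0.018 for the 57 genes and -0.00084 for all tested genes, and 26 repair genes (45.6%) lay below zero and 31 above, beside 50.1% of all tested genes below zero. Without regard to sign, the median log2 difference was 0.13 for the repair genes, 0.18 for all tested genes and 0.15 for tested genes in the same range of CPM. The libraries resolved small differences for these genes, since the standard errors of the log2 fold change ran from 0.068 to 0.12 and each gene had between 154 and 17070 counts in each library. For 42 of the 57 genes the whole 95% interval of the difference lay within 1.3-fold in either direction, and for the other 15 it reached that size.

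**Figure D1:**
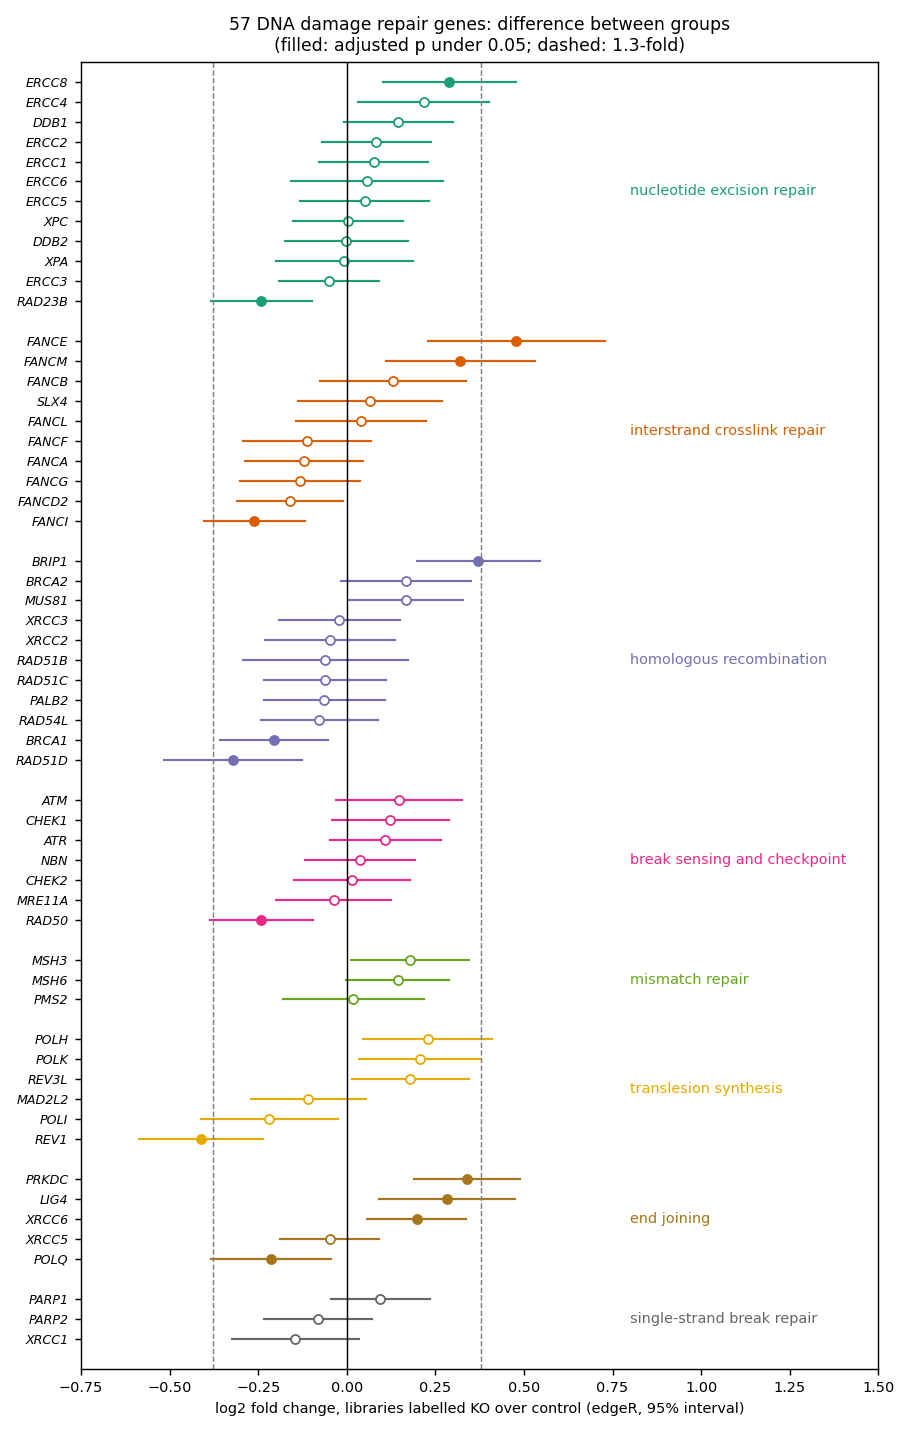
Log2 fold change (x axis, libraries labelled KO over control, n = 3 each) of each of the 57 repair genes with its 95% interval from edgeR, grouped and coloured by pathway, with filled points for an adjusted p under 0.05 and dashed lines at 1.3-fold. Most intervals span zero or stay between the dashed lines, and only the points of FANCE and REV1 lie outside them.

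**Figure D2:**
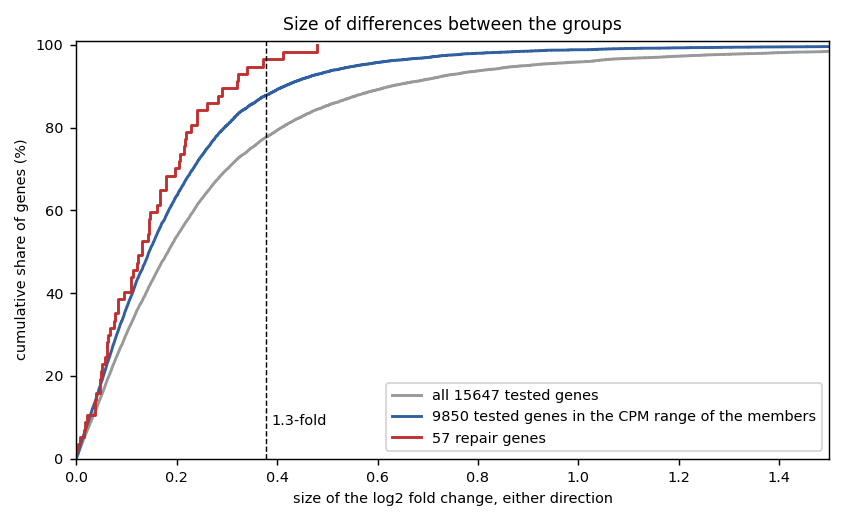
Cumulative share of genes (y axis, percent) against the size of the log2 fold change in either direction (x axis), for the 57 repair genes, the 9850 tested genes in their range of CPM and all 15647 tested genes. The curve of the repair genes ends at 0.48, whereas the other curves, which hold many more genes, run on beyond it.

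REV1 and FANCE were the members past both thresholds, so the 250 bases before their transcription start sites are shown for what they share, from RefSeq on GRCh38.p14. REV1 lies at chr2:99490018-99490267 on the minus strand and FANCE at chr6:35452088-35452337 on the plus strand. The BRIP1 window, at chr17:61863529-61863778 on the minus strand, is also shown. Of the 53 repair gene windows searched, it alone held the forkhead core TAAACA, which is printed in capitals. It was chosen after the letters were seen. All are written 5′ to 3′ in the direction of transcription.
REV1: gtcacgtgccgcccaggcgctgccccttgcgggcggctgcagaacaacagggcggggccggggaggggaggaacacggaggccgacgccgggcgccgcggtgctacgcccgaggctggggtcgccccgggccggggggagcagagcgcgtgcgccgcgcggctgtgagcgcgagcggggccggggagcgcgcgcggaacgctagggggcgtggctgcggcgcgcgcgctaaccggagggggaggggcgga
FANCE: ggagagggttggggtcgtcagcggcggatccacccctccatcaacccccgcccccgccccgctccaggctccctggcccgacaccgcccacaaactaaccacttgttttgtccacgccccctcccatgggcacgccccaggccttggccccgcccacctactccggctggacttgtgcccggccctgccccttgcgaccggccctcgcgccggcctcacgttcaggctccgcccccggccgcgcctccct
BRIP1: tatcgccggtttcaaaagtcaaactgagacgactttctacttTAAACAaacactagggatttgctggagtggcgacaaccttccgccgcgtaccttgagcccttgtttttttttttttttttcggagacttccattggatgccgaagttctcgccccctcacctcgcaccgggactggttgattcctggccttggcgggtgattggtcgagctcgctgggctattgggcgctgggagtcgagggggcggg
The windows of REV1 and FANCE were rich in G and C, with a GC content of 80.8% and 73.6%, while BRIP1 had 54%. The median was 64.4% over the 53 repair genes with a window in the table and 58% over all 27305 promoter windows. FANCI, NBN, PRKDC and XRCC5 had no entry. On either strand, TAAACA was found in 1 of the 53 windows (1.89%), that of BRIP1, from 208 to 203 bases before the start, beside 11.1% of all windows. An E2F motif written as TTTGGCGC or TTTCGCGC was found in 1 of 53 (1.89%), that of MSH3, beside 0.996% of all windows. These matches describe letters only, and neither binding nor its absence can be read from them.

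Translesion synthesis held the repair gene that fell. REV1, which inserts cytosine opposite damaged bases and serves as a platform for the other translesion polymerases, lies on chromosome 2 from 100016938 to 100106497 on the minus strand (GRCh37, 23 exons). It was at 40.8, 44.4 and 49.4 CPM in the control libraries and 36.2, 33.3 and 32.0 CPM in the libraries labelled KO. Every control library lay above every library labelled KO. The mean went from 44.9 ± 4.33 to 33.8 ± 2.13 CPM (SD, n = 3 each), a log2 fold change of -0.41 ± 0.085 (SE, edgeR adjusted p = 0.000429) or a 1.33-fold decrease. Control library 3 was the highest, and without it the log2 fold change was -0.34 (adjusted p = 0.00954), which is under the fold threshold. The canonical REV1 transcript shares 17.97% of its bases with exons of EIF5B, whose own log2 fold change was -0.013.

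The other translesion genes went either way and none passed the test. POLH, the polymerase that copies past thymine dimers and platinum adducts, had 18.1, 18.4 and 18.8 CPM in the control libraries and 21.4, 22.8 and 20.6 CPM in the libraries labelled KO. The groups did not overlap, and its adjusted p of 0.0518 (edgeR) was just outside the threshold, at a log2 fold change of 0.23 ± 0.089. POLK had a log2 fold change of 0.21 and REV3L, the catalytic subunit of polymerase zeta, of 0.18. POLI, a close relative of POLH, had -0.22, and MAD2L2, the adaptor that joins REV1 to polymerase zeta, had -0.11. Of the 6 genes 3 lay on each side of zero, with a median of 0.035, and 3 of the 6 intervals stayed within 1.3-fold.

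Interstrand crosslink repair held the repair gene that rose. FANCE, a subunit of the Fanconi core complex that contacts FANCD2, lies on chromosome 6 from 35420115 to 35434881 on the plus strand (GRCh37, 10 exons). It was at 8.07, 6.31 and 8.33 CPM in the control libraries and 12.2, 10.2 and 9.47 CPM in the libraries labelled KO. Every library labelled KO lay above every control library. The mean went from 7.57 ± 1.10 to 10.6 ± 1.40 CPM (SD, n = 3 each), a log2 fold change of 0.48 ± 0.12 (SE, edgeR adjusted p = 0.00345) or 1.39-fold. FANCE had among the lowest levels of the repair genes and the largest standard error, and the log2 fold change was 0.36 (adjusted p = 0.0378) without control library 2 and 0.37 (adjusted p = 0.0364) without KO library 1, each under the fold threshold.

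A further pair of crosslink repair genes had an adjusted p under 0.05 below the fold threshold, in opposite directions. FANCI, which is monoubiquitinated together with FANCD2 at crosslinks, was at 141.4, 141.0 and 138.1 CPM in the control libraries and 120.2, 110.9 and 119.9 CPM in the libraries labelled KO. The groups were well separated, with a log2 fold change of -0.26 ± 0.069 (edgeR adjusted p = 0.00471). FANCM, the DNA translocase that recruits the core complex to the lesion, was at 10.3, 13.3 and 11.8 CPM in control and 15.0, 14.95 and 14.4 CPM in the libraries labelled KO. Its log2 fold change was 0.32 ± 0.10 (adjusted p = 0.0188), with no overlap between the groups. FANCD2, the partner of FANCI, was at 67.2, 69.7 and 71.2 CPM in control and 64.5, 60.9 and 60.9 CPM in the libraries labelled KO, a log2 fold change of -0.16 (adjusted p = 0.0977). The core subunits FANCA, FANCF and FANCG had log2 fold changes from -0.13 to -0.11, whereas FANCB and the ubiquitin ligase FANCL had 0.13 and 0.040, and the nuclease scaffold SLX4 had 0.066, none past the test. The subunits of the core complex therefore lay on either side of zero, and the median of the 10 crosslink repair genes was -0.036.

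Nucleotide excision repair held no called gene. Of its 12 genes, 4 lay below zero and 8 above, 9 of the 12 intervals stayed within 1.3-fold, and the median log2 fold change was 0.054. The lesion recognition genes XPC and DDB2 had log2 fold changes of 0.0028 and -0.0015 and the scaffold XPA had -0.0073, the smallest differences of all 57. The ERCC2 and ERCC3 helicases of transcription factor IIH, which open the DNA around the lesion, had 0.084 and -0.050. ERCC1, the partner of the ERCC4 nuclease that cuts on the 5′ side, had 64.3, 59.4 and 57.7 CPM in the control libraries and 64.1, 65.9 and 61.1 CPM in the libraries labelled KO. The groups overlapped, with a log2 fold change of 0.076 ± 0.075 (95% interval -0.078 to 0.23), so a change of ERCC1 by 1.3-fold lay outside the interval. ERCC4 had 0.22 (adjusted p = 0.0708), and ERCC5, the nuclease on the 3′ side, had 0.051.

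RAD23B and ERCC8 were the excision repair genes with an adjusted p under 0.05. RAD23B, which stabilises XPC, was at 370.8, 381.3 and 375.6 CPM in control and 311.7, 298.0 and 344.4 CPM in the libraries labelled KO. The control libraries were tightly grouped above the others, and the log2 fold change was -0.24 ± 0.070 (edgeR adjusted p = 0.0093). ERCC8, a subunit of the ubiquitin ligase of transcription-coupled repair, was at 15.7, 17.9 and 16.4 CPM in control and 21.4, 19.8 and 20.1 CPM in the libraries labelled KO. The groups did not overlap, and its log2 fold change was 0.29 ± 0.092 (adjusted p = 0.0168). ERCC6, which acts with ERCC8 at stalled RNA polymerase, had 0.057, and DDB1, the adaptor in the ligases of both DDB2 and ERCC8, had 0.15 (adjusted p = 0.151). ERCC1 and ERCC5 share exonic bases with other genes, 47.1% of the ERCC1 transcript with POLR1G, which itself was lower at a log2 fold change of -0.42, and 91.7% of the ERCC5 transcript with the readthrough gene BIVM-ERCC5. Over all pathways 29 of the 57 genes shared some exonic bases with another gene, and besides these the share was over 25% for XRCC3, XPC, FANCA, FANCL and RAD54L, so the values of these 7 are uncertain.

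Homologous recombination genes lay more often below zero than above, 8 of 11, with a median of -0.061 and no gene past both thresholds. BRIP1, the helicase that binds BRCA1, was at 33.8, 40.5 and 40.2 CPM in control and 49.9, 45.5 and 52.8 CPM in the libraries labelled KO. All the libraries labelled KO were above all the control libraries, and the log2 fold change was 0.37 ± 0.085 (edgeR adjusted p = 0.00128), a 1.29-fold difference just inside the fold limit. RAD51D, which takes part in strand exchange, was at 20.2, 18.8 and 17.8 CPM in control and 14.1, 16.4 and 14.8 CPM in the libraries labelled KO, a log2 fold change of -0.32 ± 0.095 (adjusted p = 0.011). BRCA1 was at 64.2, 72.1 and 67.7 CPM in control and 57.9, 58.4 and 60.6 CPM in the libraries labelled KO, a log2 fold change of -0.21 ± 0.074 (adjusted p = 0.0375). Neither gene had overlapping groups.

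None of the remaining homologous recombination genes had an adjusted p under 0.05. PALB2, which links BRCA1 to BRCA2, had -0.063, and BRCA2, a mediator of strand exchange, had 0.17 (adjusted p = 0.167). RAD51B was at -0.061, RAD51C at -0.062, XRCC2 at -0.047 and XRCC3 at -0.021. RAD54L, a DNA translocase, had -0.077, and the junction nuclease MUS81 had 0.17, with the groups apart (adjusted p = 0.12). Of the 11 genes, RAD51D was the lowest at -0.32, and 9 of the 11 intervals in this pathway stayed within 1.3-fold.

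End joining had the highest pathway median, 0.20. Of its 5 genes 4 had an adjusted p under 0.05, 3 higher and 1 lower, with none past the fold threshold. Over all tested genes 29.4% had an adjusted p under 0.05. The 5 other end joining genes tested, from a longer list described below, did not share the higher median. Their median was -0.007, and none had an adjusted p under 0.05. PRKDC, the catalytic subunit of the DNA-dependent protein kinase, was at 526.9, 503.1 and 485.6 CPM in control and 694.4, 639.0 and 585.0 CPM in the libraries labelled KO. The groups did not overlap, and the mean went from 505.2 ± 20.7 to 639.5 ± 54.7 CPM (SD, n = 3 each), a log2 fold change of 0.34 ± 0.073 (SE, edgeR adjusted p = 0.000654) or 1.27-fold. The kinase binds DNA ends through a dimer of XRCC6 and XRCC5 (Ku70 and Ku80), whose genes gave different values. XRCC6 was at 624.6, 586.5 and 576.5 CPM in control and 698.9, 676.7 and 673.9 CPM in the libraries labelled KO, a log2 fold change of 0.20 ± 0.068 (adjusted p = 0.0293). XRCC5 was at 514.4, 481.6 and 485.5 CPM in control and 485.0, 454.0 and 494.0 CPM in the libraries labelled KO, with overlapping groups and a log2 fold change of -0.048 ± 0.069 (95% interval -0.19 to 0.092). The difference between the Ku genes was not tested.

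The ligase and the alternative pathway differed in sign. LIG4, which seals the ends, was at 27.6, 33.9 and 30.8 CPM in control and 35.1, 34.2 and 43.0 CPM in the libraries labelled KO, with the groups only just apart. Its log2 fold change was 0.28 ± 0.094 (edgeR adjusted p = 0.0227), and without KO library 3 it was 0.16 (adjusted p = 0.246), with an adjusted p over the threshold also without control library 1. POLQ, the polymerase of microhomology-mediated end joining, was at 41.0, 48.8 and 42.7 CPM in control and 38.8, 36.4 and 39.1 CPM in the libraries labelled KO. Its groups were also only just apart, and the log2 fold change of -0.21 ± 0.082 had an adjusted p of 0.0496.

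RAD50 was the only one of the 7 break sensing genes with an adjusted p under 0.05. Of the 7 genes 2 lay below zero and 5 above, with a median log2 fold change of 0.038. RAD50, the ATPase that bridges broken ends, was at 82.3, 87.2 and 84.0 CPM in control and 70.9, 70.7 and 73.0 CPM in the libraries labelled KO, well apart from control, with a log2 fold change of -0.24 ± 0.071 (edgeR adjusted p = 0.0106). Its partners in the MRN complex lay nearer zero, the nuclease MRE11A at -0.037 and NBN at 0.038, with overlapping groups. ATM, the kinase that MRN activates at breaks, had 45.4, 60.8 and 57.5 CPM in control and 58.8, 61.2 and 61.3 CPM in the libraries labelled KO, and its log2 fold change of 0.15 (adjusted p = 0.216) came with a low value in control library 1. ATR, the kinase of stalled forks, had 0.11, and the checkpoint kinases CHEK1 and CHEK2 had 0.12 and 0.015.

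Mismatch repair and single-strand break repair held no gene with an adjusted p under 0.05, and all 6 of their intervals stayed within 1.3-fold. MSH6, which recognises base mismatches, was at 110.8, 113.5 and 103.4 CPM in control and 123.4, 115.1 and 123.5 CPM in the libraries labelled KO, a log2 fold change of 0.14 (edgeR adjusted p = 0.129). MSH3, which recognises larger loops, had 0.18 (adjusted p = 0.101), and PMS2, the endonuclease subunit, had 0.018. PARP1, which marks nicks with poly(ADP-ribose), had 0.094, PARP2 had -0.082 and the scaffold XRCC1 had -0.15. How reads that fit several places were counted is not given. The values of genes with near-identical pseudogene copies, among them PMS2 and XRCC6, are therefore uncertain.

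**Figure D3:**
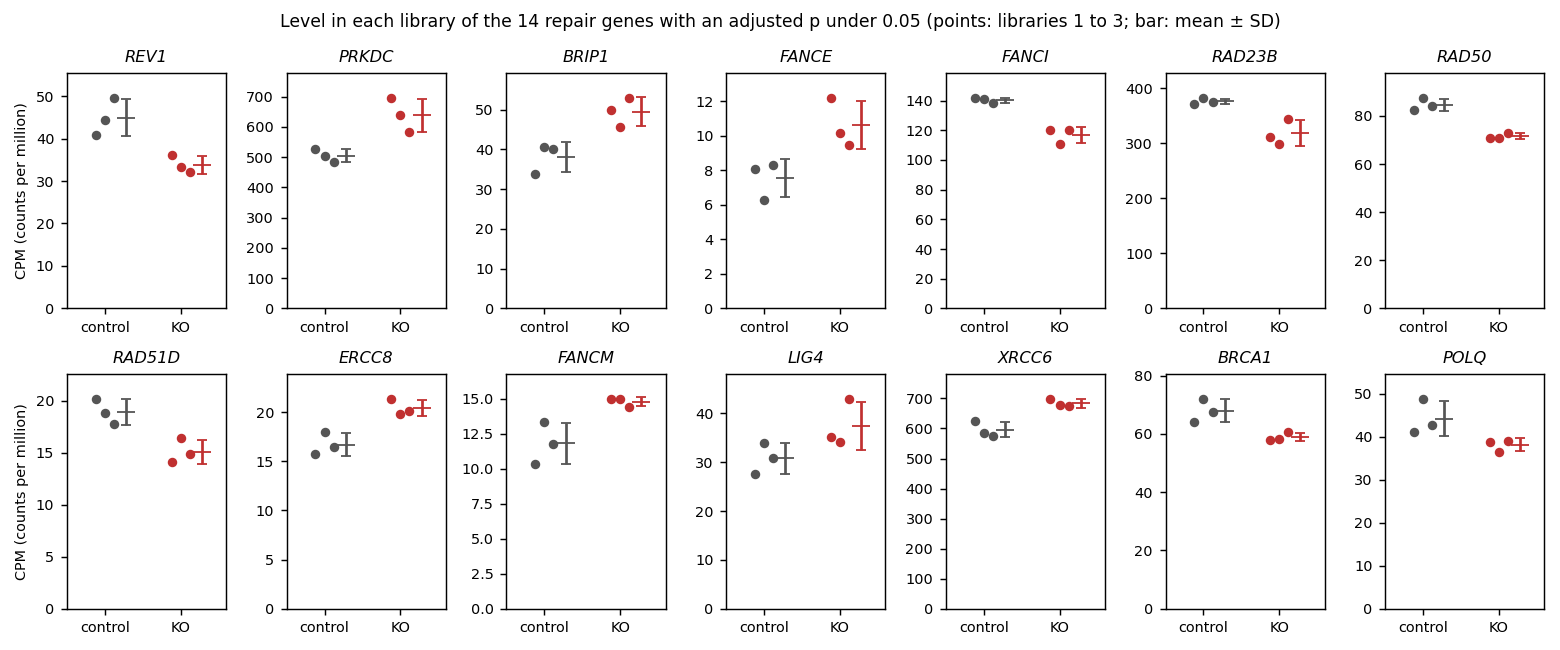
Level (y axis, CPM, from zero) of the 14 repair genes with an adjusted p under 0.05 in each of the 3 control and 3 KO-labelled libraries, ordered by p, with points for libraries and the bar for mean ± SD. The points of the groups do not overlap in any panel, which the choice by p favours, and 41.3% of all tested genes did not overlap. For FANCE, FANCM, BRCA1, LIG4 and POLQ the gap is small beside the spread.

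Between the repair genes, levels set per kilobase of the canonical transcript ranged widely in the control libraries. XRCC6 was the highest at 281 ± 11.96 CPM per kb (SD, n = 3), followed by XRCC5 at 146, RAD23B at 91.4, DDB1 at 82.8 and PARP1 at 58.5. The lowest were RAD51D at 1.90, ERCC8 at 1.77, FANCM at 1.66 and ERCC6 at 1.36 ± 0.14 CPM per kb. The genes at the top therefore act in end joining, excision repair and nick sensing, and the highest of the crosslink repair genes was FANCI at 29.6 CPM per kb. In the order of levels, the ranges of mean ± 1 SD overlapped for 42 of the 56 neighbouring pairs and did not for 14. The order of most neighbours is therefore uncertain. The transcript lengths also came from a later gene annotation than the one used for counting. They were 9966 bases for RAD51D and 9414 bases for ERCC8, both among the lowest per kb. The part of the difference in annotation in these levels and ranks was not tested.

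**Figure D4:**
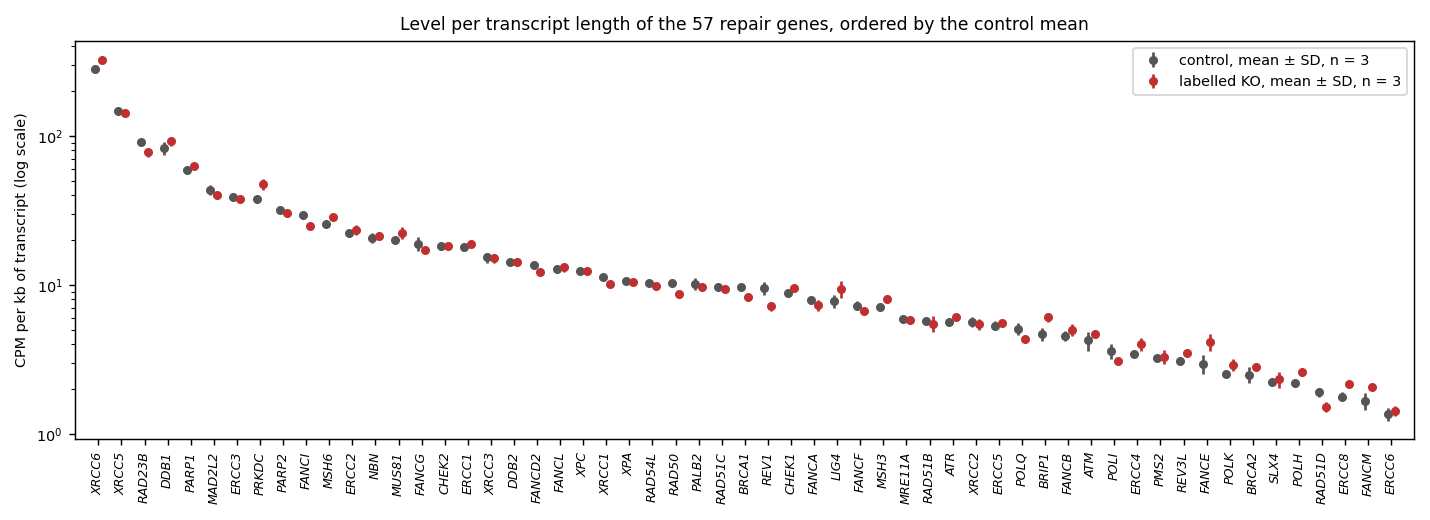
Level per transcript length (y axis, CPM per kb of the canonical transcript, log scale) of the 57 repair genes in the control and KO-labelled libraries, mean ± SD of 3 libraries each, ordered by the control mean. XRCC6 is at 281 and ERCC6 at 1.36 in control, and for most genes the points of the groups lie close together.

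A longer list of 107 other genes of the same pathways was read in the same way. Of these, 105 were matched to the table and 102 were tested, and 5 fell and 2 rose, which is 6.86% beside the 16.0% of all tested genes. Without the fold threshold 29 had an adjusted p under 0.05, 17 lower and 12 higher, or 28.4%, near the 29.4% of all tested genes. GTF2H4, SLX1A and NHEJ1 had too few counts to be tested, and APITD1 and STRA13 were not matched.

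The called genes in that list belonged to several pathways. UNG, the uracil glycosylase that opens base excision repair, fell the most, from 167.9, 150.1 and 149.3 CPM in control to 91.7, 89.5 and 93.7 CPM, a log2 fold change of -0.77 ± 0.072 (edgeR adjusted p = 1.53e-09). BARD1, the partner with which BRCA1 forms a ubiquitin ligase, fell from 48.2, 55.3 and 55.1 CPM to 38.0, 34.6 and 42.5 CPM, a log2 fold change of -0.46 ± 0.085 (adjusted p = 0.000113). BARD1 and BRCA1 were thus both lower, BRCA1 by less than the fold threshold. WEE1, the kinase that holds cells before mitosis, fell by 0.42, the single-strand binding subunit RPA3 by 0.40 and the checkpoint clamp subunit RAD9A by 0.39 on the log2 scale. RFC1, the large subunit of the clamp loader, rose by a log2 fold change of 0.41 (adjusted p = 6.45e-05). POLN, a translesion polymerase, rose from 1.29, 1.35 and 1.22 CPM to 3.91, 3.53 and 3.61 CPM, a log2 fold change of 1.51 ± 0.18 (adjusted p = 1.18e-07), and 15.0% of its transcript is shared with exons of HAUS3.

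By pathway, the other genes of homologous recombination had the lowest median, -0.16, with 15 of 18 below zero and 6 lower against 1 higher at an adjusted p under 0.05. Over all tested genes 50.1% lay below zero, 14.3% were lower and 15.2% higher by that rule. For the other genes of end joining the median was -0.007, with 3 of 5 below zero and none at an adjusted p under 0.05. The median over all 102 other repair genes was -0.007. No test of the pathways against each other was run. Each pathway median of the 57 genes kept its sign when any 1 library was left out.

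**Figure D5:**
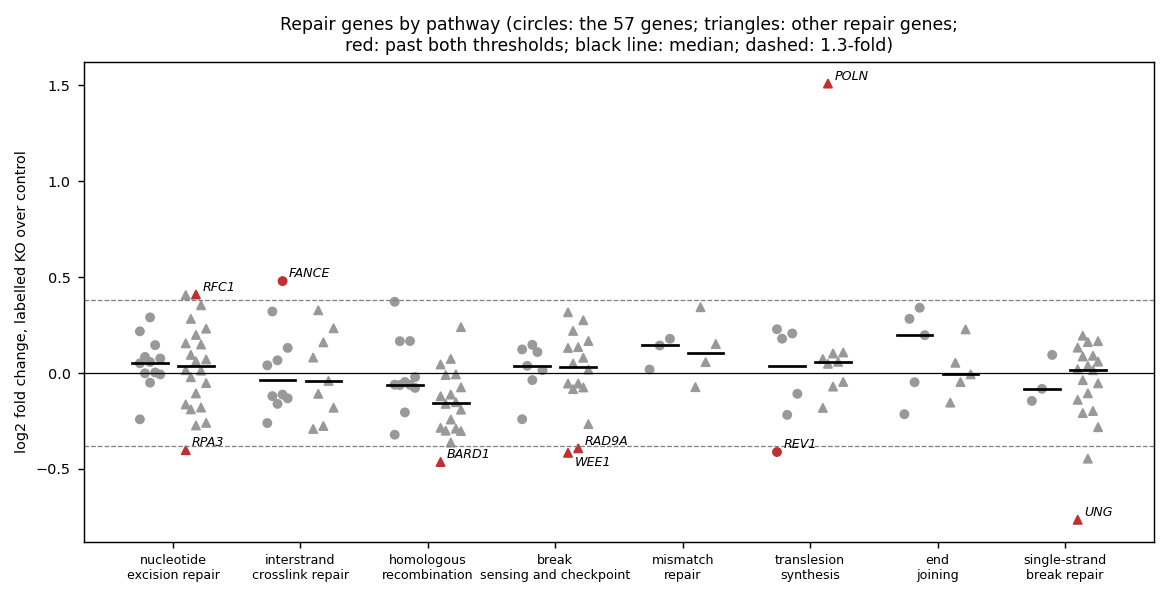
Log2 fold change (y axis, libraries labelled KO over control) of the 57 repair genes (circles) and the 102 other tested repair genes (triangles) by pathway (x axis), with red for genes past both thresholds, a black line for each median and dashed lines at 1.3-fold. The medians lie between -0.16 and 0.20, and POLN at 1.51 and UNG at -0.77 stand farthest from zero.

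The genes around REV1 and FANCE were also read, and 16.0% of all tested genes were called. Of the 16 tested genes that start within 1 Mb of REV1, 2 were lower and 1 higher, and 11 lay below zero, with a median log2 fold change of -0.10. Of the 23 near FANCE, 1 was lower and 1 higher, and 10 lay below zero, with a median of 0.071.

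Other lists give the state of the cells in which these levels were read, and their calls stand beside 8.39% lower and 7.57% higher of all tested genes. Of 26 proliferation genes 2 fell, CCNE1 and E2F2 (named after their values were seen), and none rose by both thresholds, with a median log2 fold change of -0.039 and a summed level of 4348 to 4626 CPM in control and 4355 to 4411 CPM in the libraries labelled KO. Of 20 p53 target genes 1 fell and 2 rose, with a median of -0.049 and sums of 766 to 786 and 804 to 834 CPM. Of 14 urothelial and epithelial markers 7 were tested and 6 of them fell, with sums of 3178 to 4000 CPM in control and 2487 to 2764 CPM in the libraries labelled KO, and the uroplakins and the basal keratin KRT5 were at or near zero in every library. Of 5 mesenchymal markers 1 rose, with sums of 1750 to 1891 and 1780 to 2046 CPM, and the 6 leukocyte and endothelial markers found summed to 3.48 to 4.32 CPM in control and 6.22 to 7.43 CPM in the libraries labelled KO. Both tested markers of that last list rose (named after their values were seen), CD14 from a mean of 3.52 to 5.38 CPM and CDH5 from 0.0131 CPM, a single count over the 3 control libraries, to 0.932 CPM, while CD3E was at zero in every library. The part of these lists in the levels of the repair genes was not tested.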

How the data were processed

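Polyadenylated RNA of J82 cells was sequenced as paired 75-base reads in 3 control and 3 FOXC1 knockout libraries, grouped by their labels. Per the study's methods, the authors aligned the reads to hg19 with STAR and assigned them to GENCODE 19 genes with featureCounts of Subread. The deposited values are raw counts per gene. Tool versions, strand setting and the treatment of multiply placed reads are not given in the sources used here. The members and all gene lists were chosen with earlier results of these data known.

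Counts were filtered by expression, scaled by TMM and fitted over all genes with edgeR 4.0.16 (R 4.3.3, robust quasi-likelihood F test, group only), with Benjamini-Hochberg adjustment over 15647 genes. Genes past an adjusted p of 0.05 and 1.3-fold were called. Named with every library's values were members past both thresholds and then those past p alone, and POLH, ERCC1, FANCD2, XRCC5, ATM and MSH6 were added after their values were seen. Of the other repair genes, those called were named. Positions, transcript lengths and overlaps came from GENCODE 44 lifted to GRCh37 (canonical transcripts), and promoter windows from RefSeq on GRCh38.p14. Alternatives were DESeq2 1.42.0, other scalings and filters, a common depth, a replicate block, leaving out each library and, added after seeing the data, removal of a transcript length trend. The model scripts were tested on simulated data. A few items are not reported here.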

Additional observations from a re-analysis of the deposited data

How the results depend on the processing

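Across 14 alternative settings none of the 14 repair genes with an adjusted p under 0.05 changed direction, and the other genes were not followed singly. REV1 kept an adjusted p under 0.05 in all 14 and passed both thresholds in 13, and FANCE did so in all 14 and in 12. XRCC6, BRCA1 and POLQ lost the p threshold in 5, 6 and 9 of the 14, FANCM in 4, ERCC8 and LIG4 in 2 each, RAD23B, RAD50 and RAD51D in 1 each, and PRKDC, BRIP1 and FANCI in none. An unadjusted p under 0.05 (edgeR) was found for 22 of the 57 repair genes, beside 6221 of all 15647 tested genes. Without the fold threshold 7 repair genes were lower and 7 higher at an adjusted p under 0.05. Over all tested genes 14.3% were lower and 15.2% higher by that rule. At 2-fold 0 repair genes were called in either direction by edgeR, and the share of all tested genes at 2-fold was not counted. With all libraries thinned to the smallest, 2 were higher, BRIP1 having joined FANCE. Of all 15032 genes tested there, 1233 were lower and 1110 higher. Leaving out 1 library at a time gave 0 to 2 lower and 0 to 2 higher repair genes, and 1 to 4 higher among the other repair genes. Over all genes these fits gave 1201 to 1408 lower and 1124 to 1231 higher, of 15869 to 16035 tested. REV1 was not called without control library 3, and RAD51D joined it without KO library 2. FANCE was not called without control library 2 or KO library 1. BRIP1 was called without control library 2 or 3 or KO library 2, FANCM without control library 2 and PRKDC without KO library 3.

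Pathway medians kept their signs. Leaving out 1 library, they ran from 0.015 to 0.059 for nucleotide excision repair, -0.092 to -0.023 for homologous recombination, 0.00066 to 0.099 for break sensing and -0.12 to -0.050 for single-strand break repair, from -0.057 to -0.008 for crosslink repair, and from 0.002 to 0.047 for translesion synthesis. With the transcript length trend removed, an alternative chosen after seeing the data, the excision repair median was 0.031. The median near FANCE was 0.0051 after thinning and 0.022 to 0.097 on leaving out 1 library, and near REV1 it was -0.26 with a mean of at least 50 counts and -0.26 to -0.056 on leaving out 1 library. The causes of these shifts were not tested.

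Same-numbered libraries did not deviate together (correlations -0.027, -0.072 and 0.050). The labels do not say whether the numbers denote pairs, and these values cannot decide it. With a replicate block, 1 repair gene was lower and 1 higher, again REV1 and FANCE, beside 1351 lower and 1200 higher of all 15647 tested genes. In that fit 12 repair genes had an adjusted p under 0.05, and the share of all tested genes by p alone was not counted. REV1 had a log2 fold change of -0.41 there.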

Other observations

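Some subunits of one complex went in opposite directions in the wider list of repair genes (chosen after their values were seen). Of the single-strand binding trimer, RPA1 was higher by a log2 fold change of 0.20 (edgeR adjusted p = 0.0245), whereas RPA2 had -0.27 (adjusted p = 0.00373) and RPA3 fell by 0.40. In the Fanconi pathway, UBE2T, the enzyme that passes ubiquitin to FANCD2 and FANCI, had -0.28 (adjusted p = 0.0046), while USP1, which removes it, had 0.33 (adjusted p = 0.000619) and its activator WDR48 had 0.23 (adjusted p = 0.0229). RPA3 was the only one of these past both thresholds.

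The median difference was higher among longer transcripts, though single long genes lay on either side of zero. The 19 repair genes with a canonical transcript over 6 kb had a median log2 fold change of 0.15 and the other 38 had -0.0044. Over all tested genes the median was 0.033 for the 2502 over 6 kb and -0.055 for the 3119 under 1.5 kb. The short groups thus had different limits, and the tested genes in between were left out. The length limits were chosen after seeing the data. The part of length in these values was not tested beyond the alternative with the trend removed. Under that alternative 17 repair genes had an adjusted p under 0.05, and the share of all tested genes by that rule was not counted. REV1 and FANCE passed both thresholds there, beside 1297 lower and 1156 higher of all 15647 tested genes.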
